A study of Mus musculus with 2 samples.

Results

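Thrombospondins and CCN proteins are secreted matricellular proteins, which sit in the extracellular matrix and signal to cells rather than build the matrix. The genes examined here were the 4 thrombospondin genes Thbs1, Thbs2, Thbs3 and Thbs4 and the 4 CCN genes Ccn1, Ccn2, Ccn3 and Ccn4, whose older names are Cyr61, Ctgf, Nov and Wisp1. They were found by symbol among the probe sets that carry exactly 1 gene symbol. All 8 were found, of 22180 genes with a value, and they were chosen by their signals on these same arrays, with the difference between the Srf and EGFP arrays already known. Every value below is therefore a description, with no test.

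The arrays came from mouse hepatoblasts, the progenitors of hepatocytes and bile duct cells, in primary culture from fetal liver. Srf was introduced into 1 culture and EGFP into the control culture, and 1 array was hybridised for each. The methods describe retrovirus and lentivirus vectors for both genes, and the retrovirus was taken as the one used here. The methods of the study describe hepatoblasts grown from a single clone of fetal liver cells with a Nanog-GFP transgene (HNG2) and a derivative of them with inducible reprogramming factors (HOKMSCN), and the labels do not say which was used here. By the methods, cells infected with retrovirus were selected with puromycin, except where reprogramming efficiency was examined. How long after infection the RNA was taken is not stated in the labels or methods. Both cultures were taken as grown in the maintenance conditions of the methods, on type IV collagen. That medium held 10% fetal bovine serum, 1 µg/ml insulin, 100 nM dexamethasone, 10 mM nicotinamide, β-mercaptoethanol, 50 ng/ml HGF and 20 ng/ml EGF. On this reading serum and growth factors, which themselves act on Srf and on CCN genes, were present on both sides.

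Thbs1 and Thbs2 proteins assemble as trimers, whereas Thbs3 and Thbs4 form pentamers and lack the type 1 repeats that the trimeric pair carries. Thbs1 is known for inhibiting blood vessel growth, for activating latent TGF-beta and for binding Cd47, and it is abundant in platelets. CCN proteins join an IGF-binding protein module, a von Willebrand type C module, a type 1 repeat and a cystine knot, and they act largely through integrins. Ccn1 and Ccn2 are known as genes that serum induces rapidly and as targets of Srf and of Yap and Tead, and Ccn2 is a marker of liver fibrosis.

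Values are log2 signals per probe set, with medians of 5.84 on the Srf array and 5.88 on the EGFP array over 34351 probe sets. Differences are the Srf array minus the EGFP array on the log2 scale. A gene was compared when it reached the 20th percentile of either array, which 19261 genes and all 8 members did. Over these genes the median difference was -0.01 and the SD was 0.24. With 1 array per group there was no spread between cultures to set a difference against, so precision is limited by having 2 arrays in all. Srf itself read 12.15 on the Srf array and 8.57 on the EGFP array.

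The members split widely. Thbs1, Ccn1 and Ccn4 exceeded the EGFP array by 1.5-fold or more, which is 3 of 8 members, where 1.55% of all genes compared were that much higher on the Srf array. None was that much lower (0 of 8), where 1.27% of genes were, and 2.82% of genes passed in either direction. At 2-fold, 2 members were higher (Thbs1 and Ccn1) and 0 lower, against 0.343% of genes higher, 0.317% lower and 0.659% in either direction. Since the same difference was known when the genes were picked, nothing is read from these shares. These counts take Ccn2 as the mean of its probe sets, and the median difference of the members was then 0.21. With the brightest probe set of each gene the median was 0.38, and 4 of 8 members were at least 1.5-fold higher. With the means, 6 members lay above 0 and 2 below, and 47.0% of all genes compared lay above 0. Of 7 markers of mesothelium, 6 also lay above 0 and 2 passed 1.5-fold, Upk1b at 3.89-fold, and their part in these differences was not tested. In RNA from whole cultures, more cells that express a gene and more RNA of it per cell cannot be told apart.

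**Figure D1:**
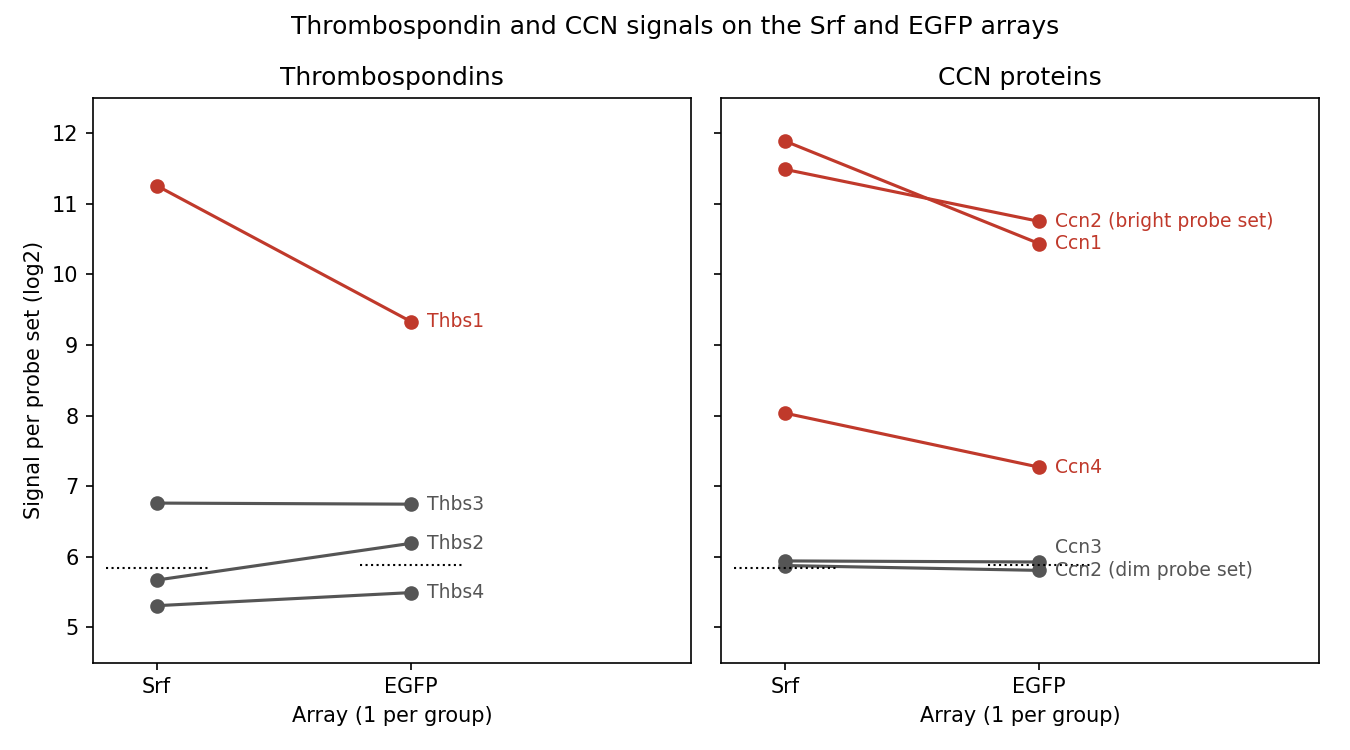
Log2 signal of each member probe set on the Srf array (left) and the EGFP array (right), thrombospondins in one panel and CCN genes in the other. Each line joins the values of 1 probe set, red lines pass 1.5-fold towards Srf, and dotted marks are the array medians (5.84 for Srf, 5.88 for EGFP). Thbs1, Ccn1, Ccn4 and the bright probe set of Ccn2 slope down towards EGFP, and Thbs2 slopes up.

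Thbs1 had the largest difference of the 8. Its signal was 11.26 on the Srf array and 9.33 on the EGFP array, a log2 difference of 1.93 or 3.81-fold. It ranked 7 from the top among all genes compared. The gene was bright on both arrays, at percentile 98.4 of the Srf array and percentile 90.9 of the EGFP array over all probe sets.

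Thbs2, which encodes the other trimeric thrombospondin and shares the domain plan of Thbs1, went the other way. It read 5.67 on the Srf array and 6.19 on the EGFP array, a log2 difference of -0.52, or 1.44-fold lower, which falls short of 1.5-fold. It ranked 328 from the bottom, so 96.1% of genes had a smaller absolute difference. Its signal lay at percentile 45.2 of the Srf array and 57.4 of the EGFP array, which puts the Srf value below the median of its array. The differences of the 2 trimeric members were 2.45 log2 units apart.

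The pentameric members showed little. Thbs3 read 6.76 on the Srf array and 6.74 on the EGFP array, a difference of 0.02, and its signal was above the median of both arrays. Thbs4, better known from muscle, tendon and the nervous system, read 5.31 on the Srf array and 5.49 on the EGFP array (-0.19). Thbs4 was the only gene of the 8 that lay below the median of both arrays. Comp, the remaining pentameric thrombospondin, known from cartilage, read 5.67 on the Srf array and 5.68 on the EGFP array.

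Among CCN genes, Ccn1 had the largest difference. Ccn1 encodes an integrin ligand that is induced within minutes of serum stimulation. It read 11.89 on the Srf array and 10.44 on the EGFP array, a difference of 1.46 or 2.74-fold, and ranked 23 from the top. At percentile 99.2 of the Srf array and 96.4 of the EGFP array, it was among the brightest probe sets of both cultures.

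Ccn4, named for its induction by Wnt signalling, had a signal of 8.04 on the Srf array and 7.27 on the EGFP array. The difference was 0.77, or 1.70-fold, at rank 144 from the top. Its level lay at percentile 79.2 of the Srf array and 71.9 of the EGFP array.

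Ccn2 was the only member with more than 1 probe set, and its probe sets gave different answers. The bright probe set read 11.49 on the Srf array and 10.75 on the EGFP array, a difference of 0.74 or 1.67-fold. The dim probe set read 5.88 on the Srf array and 5.81 on the EGFP array, a difference of 0.07, and it lay near the median of both arrays. Averaged on the log2 scale the gene read 8.68 on the Srf array and 8.28 on the EGFP array, a difference of 0.40 that misses 1.5-fold. With the brightest probe set of each gene in place of the average, Ccn2 passed 1.5-fold and 4 of 8 members were higher.

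The identifiers of the Ccn2 probe sets were compared with those around them, to see on which strand their neighbours in the numbering lie. Around the bright probe set, of 10 genes with the nearest identifiers, 8 had a strand listed and all 8 lay on the plus strand. Around the dim probe set, 8 of 10 had a strand listed and all 8 lay on the minus strand. The tables used here list no strand for Ccn2 itself, so whether the dim probe set lies on the strand of Ccn2 or opposite to it was not tested. The mean difference of 0.40, the median of 0.21 over the members and the count of 3 of 8 members rest on taking the dim probe set as a measure of Ccn2.

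Ccn3, known as an inhibitor of growth and a counterpart of Ccn2, read 5.94 on the Srf array and 5.93 on the EGFP array (0.01). It sat close to the median of both arrays. The remaining CCN genes did not pass 1.5-fold either. Ccn5, which lacks the cystine knot, read 7.09 on the Srf array and 6.95 on the EGFP array (0.14), and Ccn6 read 5.89 on the Srf array and 5.61 on the EGFP array (0.28).

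**Figure D2:**
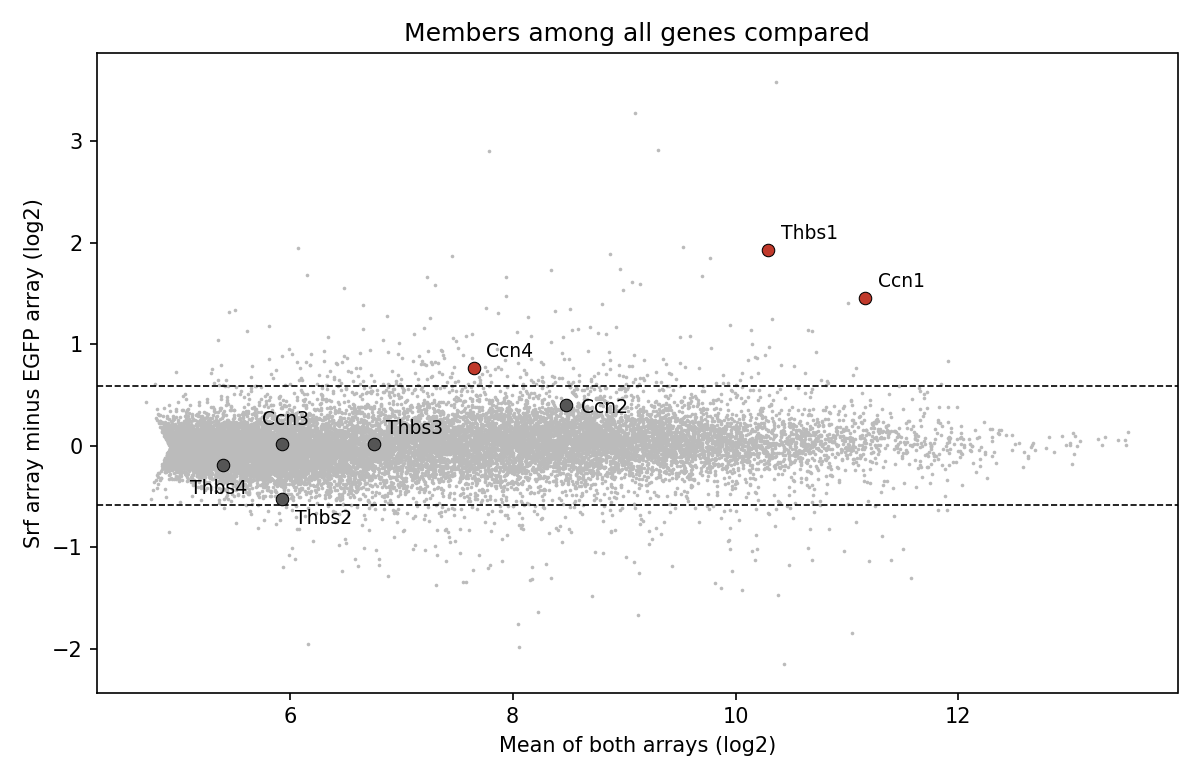
Difference (Srf array minus EGFP array, log2) against the mean of both arrays (log2) for the 19261 genes compared (grey) and the 8 members (labelled, red where they pass 1.5-fold towards Srf). Dashed lines mark 1.5-fold. Thbs1 (1.93) and Ccn1 (1.46) lie to the right and well above most of the grey cloud, whereas Thbs3 and Ccn3 lie inside it.

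The members are spread over the genome. Thbs3 and Ccn1 are both on chromosome 3, Ccn3 and Ccn4 are both on chromosome 15, and the others are on chromosomes 2, 10, 13 and 17. For each member, the nearest protein-coding gene on either side that could be compared was taken from the gene order. None of these 16 neighbours passed 1.5-fold in either direction (0 higher and 0 lower), where 2.82% of all genes compared did. For so few genes this count is near that share. The differences of the neighbours ran between -0.44 and 0.54. Rasgrp1 and Fsip1, which flank Thbs1, had differences of -0.23 and -0.11, but both lay below the median of both arrays (Rasgrp1 at 5.36 on the Srf array and 5.59 on the EGFP array, Fsip1 at 5.51 on the Srf array and 5.62 on the EGFP array). Ddah1, on one side of Ccn1, had a difference of -0.04, and Znhit6, on its other side, had 0.53. Sla and Ndrg1, beside Ccn4, had differences of -0.01 and -0.40, and Sla was likewise below both medians (5.43 on the Srf array and 5.44 on the EGFP array). Smoc2 and Wdr27, beside Thbs2, and Moxd1, beside Ccn2, were below both medians as well.

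**Figure D3:**
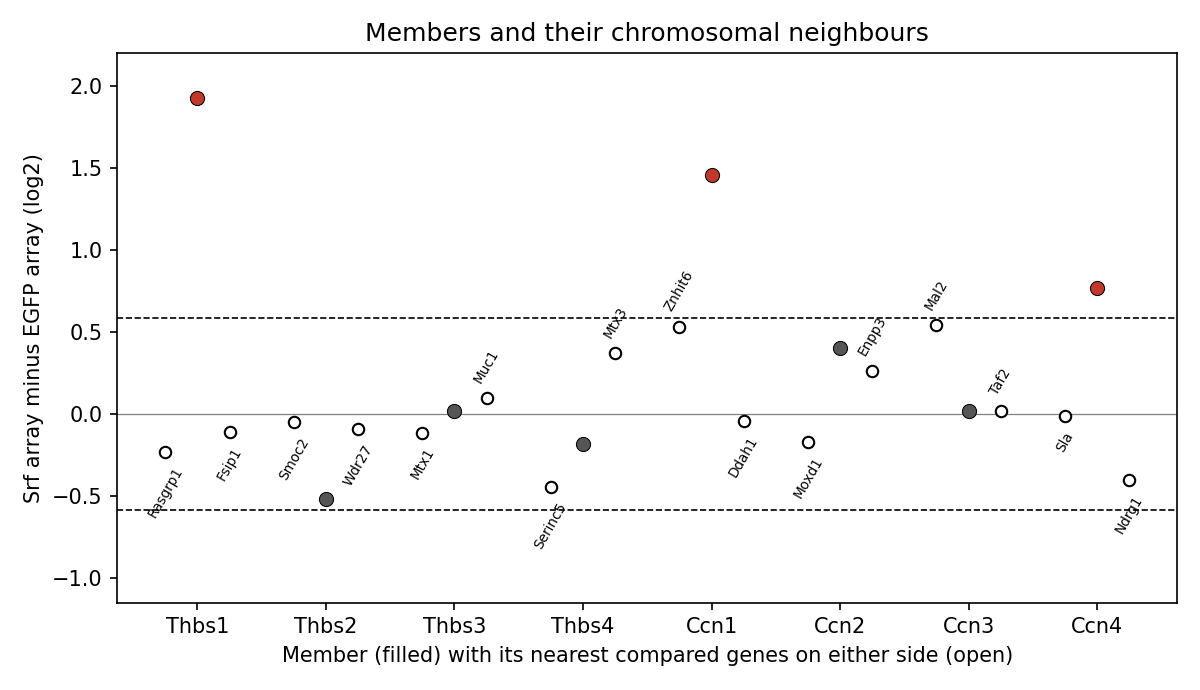
Difference (Srf array minus EGFP array, log2) of each member (filled) and of the nearest compared protein-coding gene on either side of it on the chromosome (open, named). Dashed lines mark 1.5-fold. All 16 neighbours lie between -0.44 and 0.54, while Thbs1, Ccn1 and Ccn4 lie above the upper line. Of all genes compared, 2.82% lie past either line.

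Promoters were read for the members listed in RefSeq's promoter table, which matched 4 of 8, namely Ccn1, Thbs2, Thbs3 and Thbs4, and not Thbs1, Ccn2, Ccn3 or Ccn4. Each window is the 250 bases before the start, in build GRCm38.p6, and both strands were searched. Ccn1 is shown as the bright member that differed, and Thbs4 and Thbs2 as dim members for contrast. Capitals mark the core of the Tead site (GGAATG), the TATA box (TATAAA) and the Sp1 site (GGGCGG), or the reverse complement of each where the match was on the opposite strand. The windows are chr3:145649986-145650235, chr13:92794819-92795068 and chr17:14694263-14694512, all on the minus strand and printed 5′ to 3′ along the gene.
Ccn1: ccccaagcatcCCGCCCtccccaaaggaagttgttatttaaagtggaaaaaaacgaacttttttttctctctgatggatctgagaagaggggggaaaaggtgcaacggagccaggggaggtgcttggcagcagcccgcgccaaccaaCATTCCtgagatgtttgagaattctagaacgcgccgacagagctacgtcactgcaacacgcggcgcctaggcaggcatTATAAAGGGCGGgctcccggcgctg
Thbs4: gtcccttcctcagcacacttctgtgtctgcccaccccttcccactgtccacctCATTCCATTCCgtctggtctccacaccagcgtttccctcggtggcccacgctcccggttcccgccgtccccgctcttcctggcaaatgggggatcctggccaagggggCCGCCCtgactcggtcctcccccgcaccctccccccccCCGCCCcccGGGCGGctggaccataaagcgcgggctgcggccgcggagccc
Thbs2: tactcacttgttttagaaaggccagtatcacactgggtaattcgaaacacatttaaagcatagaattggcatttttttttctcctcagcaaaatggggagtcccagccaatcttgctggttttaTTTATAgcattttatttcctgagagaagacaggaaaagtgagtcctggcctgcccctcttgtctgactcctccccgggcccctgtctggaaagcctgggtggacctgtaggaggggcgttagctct

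The Ccn1 window held GGAATG once on the opposite strand, with its first base 103 bases before the start. It also held TATAAA 25 bases before the start, which runs directly into GGGCGG at 19, and a further GGGCGG on the opposite strand at 239. The Thbs4 window held GGAATG as a pair on the opposite strand that overlap by 1 base, at 197 and 192, and GGGCGG at 89, 51 and 42. The Thbs2 window held TATAAA on the opposite strand at 126, and the Thbs3 window held GGGCGG on the opposite strand at 21. None of the 4 windows held a CArG box, the sequence bound by Srf (0 matches), or TGACTCA, the AP-1 site (0 matches). The CArG box was searched only as CCWWWWWWGG, where W is A or T, so variants that depart from this pattern were not counted. Over all 32851 promoters of this length, 12.6% held GGAATG, 12.4% TATAAA, 32.7% GGGCGG, 4.46% TGACTCA and 1.47% a CArG box. GGAATG was thus present both in Ccn1, which was higher on the Srf array, and in Thbs4, which was dim on both arrays. A match is a description of the letters and not a binding site, and sites further away were not read.

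Genes with a profile close to a member were sought among genes at or above the median of either array, as the 3 with the smallest distance over both log2 values. With 2 arrays this measures level and difference and nothing more. Nearest to Thbs1 were Rdh10, a retinol dehydrogenase gene (distance 0.48), Crim1 (0.60) and Plk2, a kinase gene induced by stress (0.68), and none came close, since Rdh10 had a difference of 1.25. Nearest to Ccn1 was Apob, the structural protein of very-low-density lipoprotein (distance 0.22), at 11.71 on the Srf array and 10.31 on the EGFP array. Bex1 and Hmga2 followed at 0.50 and 0.56. Nearest to Ccn4 were Smad7, an inhibitor of TGF-beta signalling (0.07), Ddit3, a stress-response factor gene (0.09), and Klhl21 (0.10).

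Receptors and partners of thrombospondins and CCN proteins mostly stayed within 1.5-fold and went in both directions. Over all genes compared, 1.55% were at least 1.5-fold higher and 1.27% that much lower, shares to set beside this and every later list count. Of 21 compared, 1 passed 1.5-fold upwards on the Srf array and 0 passed downwards. The median difference was -0.01, with 10 above 0 and 11 below, and the differences ran from -0.32 to 1.00. The 1 was Itga5, the alpha chain of the fibronectin receptor, at 10.65 on the Srf array and 9.64 on the EGFP array. Sdc4, a heparan sulfate co-receptor, and Calr, a partner of Thbs1 in focal adhesion signalling, had differences of 0.52 and 0.51 and did not pass. Cd47 was bright, at 10.80 on the Srf array and 10.70 on the EGFP array (0.10), whereas Cd36 was under the 20th percentile on both arrays, at 4.74 on the Srf array and 4.72 on the EGFP array. The integrin chains that bind CCN proteins with alpha v went either way, with Itgav at 0.10, Itgb5 at -0.27 and Itgb3 at -0.32.

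Other matricellular genes were read as well. Of 12 compared, 0 passed 1.5-fold upwards, where 1.55% of all genes compared did, so 0 of 12 is near that share. Downwards 2 passed, where 1.27% of genes did, and 10 of 12 lay below 0, with a median of -0.09. Tgfbi, which encodes an integrin-binding matrix protein, read 6.60 on the Srf array and 7.61 on the EGFP array (2.02-fold lower). Spock2, a testican gene, read 6.25 on the Srf array and 6.84 on the EGFP array, and lay so near 1.5-fold that it fell short (-0.55) when each array was centred on its median. Tnc and Sparc, known from wound and fibrotic matrix, had differences of -0.34 and -0.23.

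Genes whose proteins share a module with the members were read next. Of 52 other genes with type 1 repeats, 0 passed 1.5-fold upwards (1.55% of all genes did) and 1 passed downwards (1.27% did). These counts are near those shares, and the median was -0.05. The 1 lower gene was Unc5c, a netrin receptor gene, at 6.98 on the Srf array and 7.88 on the EGFP array (1.86-fold lower). Of 12 genes with the IGF-binding protein module, 2 were higher and 1 was lower, with a median of -0.11. Crim1, a transmembrane regulator of bone morphogenetic proteins, read 10.71 on the Srf array and 9.56 on the EGFP array (2.21-fold higher). Igfbp3, the main carrier of IGF in blood, read 10.63 on the Srf array and 9.76 on the EGFP array (1.82-fold higher). Igfbp2 read 6.05 on the Srf array and 6.64 on the EGFP array (1.51-fold lower) and fell short when each array was centred on its median (-0.55). Under that centring 4 of the 12 were higher and 0 lower, and Htra1, a secreted protease gene, and Igfbp4 lay just under 1.5-fold without it (0.57 and 0.55).

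Because Thbs1 can activate latent TGF-beta, genes of that pathway and of the Ltbp family were read beside it. Of 17 compared, 3 passed 1.5-fold upwards and 0 passed downwards (median 0.07). The ligand genes themselves did not pass, with Tgfb2 at 0.37, Tgfb1 at -0.18 and Tgfb3 at -0.49. Those past 1.5-fold were Ltbp2, a protein of microfibrils (7.09 on the Srf array, 6.17 on the EGFP array), Smad7, a feedback inhibitor (8.06 on the Srf array, 7.20 on the EGFP array), and Lrrc32, a carrier of latent TGF-beta (6.18 on the Srf array, 5.52 on the EGFP array). Ltbp2 fell to a difference of 0.57 once probe sets of several symbols were included.

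Genes of the pathways for which Ccn1 and Ccn2 are textbook targets were also read. Leaving the members out, 8 of 19 Srf and Mrtf targets passed 1.5-fold upwards and 0 passed downwards (median 0.46). They were led by Acta2, smooth muscle actin, at 10.73 on the Srf array and 7.46 on the EGFP array, then Itga5 and Actg2. Actg2, a further smooth muscle actin, read 6.37 on the Srf array and 5.49 on the EGFP array (1.85-fold), the latter below the median of its array. Of 27 Yap and Tead genes, 7 were higher and 0 were lower (median 0.27), with Crim1 at 2.21-fold, Amotl2, an angiomotin gene, at 2.15-fold and Igfbp3 at 1.82-fold. Yap1 and Wwtr1, the coactivators themselves, had differences of -0.03 and -0.15. Of 15 immediate-early genes, 5 were higher and 0 were lower (median 0.35), with Dusp1, a phosphatase of MAP kinases, at 3.18-fold, Jun at 2.25-fold and Fos at 1.74-fold. These lists share Itga5, Crim1, Igfbp3 and Tgfb2 with each other or with the lists above, and they were chosen with these differences known.

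**Figure D4:**
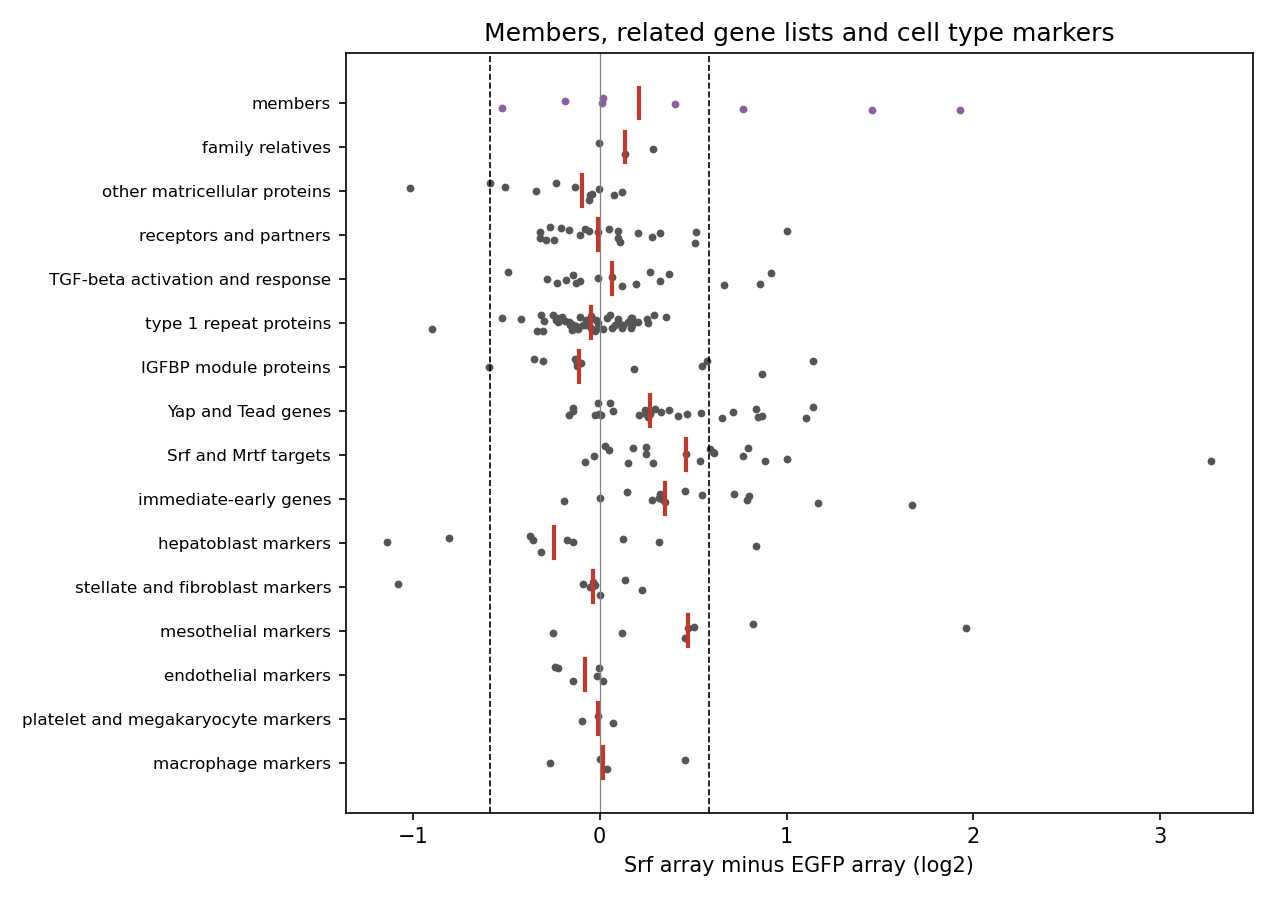
Difference (Srf array minus EGFP array, log2) of every compared gene in each list, 1 point per gene, with the list median as a red bar and 1.5-fold as dashed lines. Members are at the top in purple, then related lists, then cell type markers. Medians are highest for mesothelial markers (0.47), Srf and Mrtf targets (0.46) and immediate-early genes (0.35), and lowest for hepatoblast markers (-0.24).

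Markers of cell types were read because platelets and stellate cells are known sources of these proteins. Hepatoblast markers all lay above the array medians, between 6.04 and 12.42 on the Srf array and between 6.18 and 12.29 on the EGFP array over 10 genes, with Dlk1 at the lower end. Of these, Afp was higher (1.78-fold), and Epcam and Ttr were lower (differences of -1.14 and -0.81). Of 7 mesothelial markers compared, 6 lay above 0 and 2 passed 1.5-fold, Upk1b (3.89-fold) and Krt14 (1.77-fold), with none lower (0) and levels between 6.39 and 11.93 on the Srf array and between 5.73 and 11.46 on the EGFP array. Wt1, the transcription factor gene of mesothelium, had a difference of -0.25. The part of mesothelial genes in the differences of Thbs1, Ccn1 and Ccn4 was not tested.

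Most markers of other cells lay near or below the array medians, with Pdgfrb and Cd68 furthest above them. Stellate and fibroblast markers (9 compared) reached at most 6.78 on the Srf array and 7.86 on the EGFP array, and the only one past 1.5-fold was Pdgfrb, which was lower (2.11-fold). Platelet and megakaryocyte markers (3 compared) reached at most 6.13 on the Srf array and 6.14 on the EGFP array, with the largest difference at -0.09 for Itga2b, and Pf4 was under the 20th percentile of both arrays. Endothelial markers (6 compared) reached at most 5.99 on the Srf array and 5.97 on the EGFP array, with Kdr at -0.24. Macrophage markers (4 compared) reached at most 8.01 on the Srf array and 7.56 on the EGFP array, both in Cd68, which also had their largest difference (0.46), and Ptprc was under the 20th percentile of both arrays.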

How the data were processed

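Total RNA (200 ng) from 1 Srf and 1 EGFP hepatoblast culture was hybridised to Affymetrix mouse whole-transcript arrays, which the authors analysed in GeneSpring with percentile shifts and exclusion of low signals. No source used here gives how probes were summarised. The deposited values were taken as log2 signals. Their range (4.28 to 13.63) is the only basis for base 2, on which every fold rests.

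Of 34351 probe sets, 23521 had exactly 1 gene symbol in the platform's annotation, 1820 had several and 9010 had none listed. Where a gene had more than 1 probe set (1082 genes), the mean was taken. Genes at or above the 20th percentile of either array were compared (19261 of 22180), and higher or lower means at least 1.5-fold, the study's threshold for these cells. With 1 array per group there is no replicate check and no p-value. Promoters, strand and gene order came from RefSeq tables of GRCm38.p6. No coordinates were taken for probe sets.

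Members and the 15 gene lists (9 related, 6 of cell type markers) were chosen with earlier results of these data known. All members are named. In each list, up to 3 genes past 1.5-fold per direction are named, or else the gene with the largest absolute difference. Tgfb1, Tgfb2, Tgfb3, Cd47, Cd36, Calr, Sdc4, Itgav, Itgb3, Itgb5, Tnc, Sparc, Yap1, Wwtr1, Comp, Ccn5, Htra1, Igfbp4, Dlk1, Wt1, Pf4 and Ptprc were added after their values were seen. The counting was checked on simulated data with 1 probe set per gene and unchanged genes held under 1.5-fold. The averaging of probe sets was not checked in this way. Alternatives were 4 scalings, 2 filters, the brightest probe set, probe sets with several symbols and a 2-fold threshold. Python 3.11.15, pandas 2.3.3 and statsmodels 0.14.6 were used.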

Additional observations from a re-analysis of the deposited data

How the results depend on the processing

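Under the 4 alternative scalings the differences stayed between 1.90 and 1.97 for Thbs1, 1.44 and 1.49 for Ccn1, 0.75 and 0.81 for Ccn4, 0.39 and 0.44 for Ccn2, and -0.53 and -0.48 for Thbs2, and 3 members were higher and 0 lower under each. With the brightest probe set of a gene, Ccn2 became 0.74 and 4 members were higher. With a filter at the array median 7 members were compared, Thbs4 being left out. At 2-fold, 66 genes were higher (0.343% of genes compared) and 61 lower (0.317%). Of the genes in the related lists, each counted once, 6 were higher and 1 was lower, against 23 and 4 at 1.5-fold. At 1.5-fold, 1.55% of all genes compared were higher and 1.27% lower. These lists were chosen with the differences known, so nothing is read from their counts. The 4 lower genes of the related lists became 2 with median centring, quantile normalization or lowess centring, as Igfbp2 and Spock2 lay just past 1.5-fold. Myh9 fell under 1.5-fold with the shift to a common 75th percentile and with lowess centring. No paired analysis was possible because each group has 1 array. Signals near or below the array median limit what Thbs2, Thbs4, Ccn3 and the dim Ccn2 probe set can show. The same holds for the neighbours Rasgrp1, Fsip1, Sla, Smoc2, Wdr27 and Moxd1. Among list genes named as higher, Actg2, Lrrc32 and Krt14 lay below the median of the EGFP array, which limits what their folds can show.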
